A study of Homo sapiens with 6 samples.

Results

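Semaphorins, plexins, neuropilins, ephrins and EPH receptors are the cell-surface and secreted proteins by which cells attract or repel one another. The group described here holds the protein-coding genes of these families, chosen by symbol from the deposited gene table: 53 of its 50229 gene symbols. Of these 53 genes, 20 encode semaphorins, 2 neuropilins, 9 plexins, 8 ephrins and 14 EPH receptors. The families were set out with earlier results from these libraries known, but the symbol pattern itself used no measured value.

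Gene expression was measured by RNA sequencing in 6 libraries. Their cells carry the label Hep3B, the name of a line derived from a human liver carcinoma. The 3 siEIF4G2 libraries were made from cells treated, at 50 nM, with small interfering RNA directed at EIF4G2, a translation initiation factor of the EIF4G family. The 3 siNC libraries were made from cells treated with the control RNA, also at 50 nM. All 6 thus share the line label and the RNA dose. The labels give neither the time of treatment nor the number of different small interfering RNAs, and do not call the replicates separate cultures. The p-values therefore measure spread among libraries that may differ in technical ways alone. Total counts lay between 63351653 and 72863628 per library. EIF4G2 itself stood at 17.9, 17.6 and 20.05 FPKM in siEIF4G2 libraries and at 107, 89.4 and 97.8 FPKM in siNC libraries, 5.41-fold lower (edgeR adjusted p = 0.000207). Levels are given throughout in FPKM, the deposited fragment count scaled to gene length and library size, so that genes can be compared with each other. The labelled line was checked against its markers. All 14 hepatocyte markers had means under 1 FPKM and 10 of them, ALB, AFP and APOA1 included, were at 0 counts in all 6 libraries, so the defining markers of the labelled line were absent. The labels' protocol, at odds with a liver line, speaks of adipose material. Both groups share this. Log2 fold changes, siEIF4G2 over siNC, and their tests come from edgeR on the deposited counts.

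Semaphorins are ligands, some secreted and some held in the membrane. Plexins are their receptors, and neuropilins are co-receptors that bind the secreted class 3 semaphorins and pass the signal through plexins. EPH receptors are receptor tyrosine kinases, and their ligands, the ephrins, are themselves bound to the membrane, by a lipid anchor in ephrin-A and by a transmembrane segment in ephrin-B. The families were first studied as guides of growing axons and blood vessels, and several members are also known in epithelia and carcinomas. Semaphorin and ephrin signals reach the actin cytoskeleton through small GTPases.

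The upstream sequences of 5 members are shown as examples. Of these, EPHA2, SEMA3F, PLXNA2 and SEMA3C were lower and EFNB2 was higher after silencing, as described below. The upstream sequences of PLXNA3 and PLXNB3, which were also lower, are not shown. Each line gives the 250 bases before the RefSeq start site in GRCh38, read in the direction of the gene, and capitals mark the GC box GGGCGG or its reverse complement CCGCCC.
EPHA2 (chr1:16156070-16156319, minus strand): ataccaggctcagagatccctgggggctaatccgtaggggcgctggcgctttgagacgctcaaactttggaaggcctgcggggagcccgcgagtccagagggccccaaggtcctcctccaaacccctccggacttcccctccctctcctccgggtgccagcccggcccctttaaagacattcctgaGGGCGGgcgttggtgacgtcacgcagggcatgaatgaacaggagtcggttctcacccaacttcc
SEMA3F (chr3:50154808-50155057, plus strand): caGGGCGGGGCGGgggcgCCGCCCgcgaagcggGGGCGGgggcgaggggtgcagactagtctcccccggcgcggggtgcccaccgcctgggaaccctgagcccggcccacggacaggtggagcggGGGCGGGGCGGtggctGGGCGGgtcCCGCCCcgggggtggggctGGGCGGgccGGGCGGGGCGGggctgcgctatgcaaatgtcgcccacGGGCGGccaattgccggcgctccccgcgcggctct
PLXNA2 (chr1:208244385-208244634, minus strand): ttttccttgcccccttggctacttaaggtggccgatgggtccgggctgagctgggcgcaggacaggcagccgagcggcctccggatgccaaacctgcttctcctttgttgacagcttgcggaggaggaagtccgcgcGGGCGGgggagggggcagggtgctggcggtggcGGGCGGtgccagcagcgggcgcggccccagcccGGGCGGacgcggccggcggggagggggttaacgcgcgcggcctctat
SEMA3C (chr7:80922390-80922639, minus strand): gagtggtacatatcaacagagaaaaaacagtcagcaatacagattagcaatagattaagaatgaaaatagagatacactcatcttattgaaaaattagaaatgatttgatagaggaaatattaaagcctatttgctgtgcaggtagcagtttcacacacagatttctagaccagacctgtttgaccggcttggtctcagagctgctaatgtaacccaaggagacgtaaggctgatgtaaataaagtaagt
EFNB2 (chr13:106535663-106535912, minus strand): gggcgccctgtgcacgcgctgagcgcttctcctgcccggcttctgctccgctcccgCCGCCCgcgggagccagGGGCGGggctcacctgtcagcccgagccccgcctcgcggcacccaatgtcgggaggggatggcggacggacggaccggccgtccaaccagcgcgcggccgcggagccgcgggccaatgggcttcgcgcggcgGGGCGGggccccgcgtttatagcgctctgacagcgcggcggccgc
For these 5 genes the RefSeq start lay 0 to 30 bases from the 5′ end of the gene's interval in the deposited table. The SEMA3F window held 12 GC boxes, several of them overlapping, and 82.0% of its bases were G or C. The SEMA3C window held 0 and had 36.4% G or C. The other windows held 1 GC box in EPHA2, 3 in PLXNA2 and 3 in EFNB2.

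RefSeq windows were matched by symbol for 47 of the 53 members. With both strands searched, the GC box was present upstream of 6 of 8 members that were lower, 2 of 2 that were higher and 14 of 16 that were tested and did not pass. It was present in 42.3% of 27305 windows of all genes and in 68.5% of 9375 windows of tested genes. The TATA box TATAAA was found, on the reverse strand, upstream of EFNB2 and of no other tested member with a window, against 5.3% of windows of tested genes. Other motifs searched on both strands were the CCAAT box CCAAT, in 8 of the 26 windows of tested members and 35.5% of windows of tested genes, and the E-box CACGTG, in 2 of the 26 and 9.2%. The AP-1 element TGANTCA and the core of the interferon-stimulated response element were in 0 of the 26, against 3.7% and 2.3%. A match of letters is a description and shows no binding. The start sites of PLXNA1, PLXNB2 and SEMA3B in RefSeq lay 5479, 5977 and 5561 bases from the 5′ end of their intervals in the deposited table, so their windows are not shown. Of the 47 windows, 32 lay within 50 bases of that end, and the counts of motifs take in all of them, near or far.

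Of the 53 members, 28 reached at least 0.5 FPKM in at least 3 libraries and were tested. At an adjusted p of 0.05 in edgeR, 2 of them were higher and 9 were lower after silencing, which makes 11, and 17 did not pass. Among all 13748 tested genes 33.4% passed, 15.9% higher and 17.6% lower, so the members' 39.3% lies near the share of all genes. The split within the group was 7.1% higher and 32.1% lower. The median log2 fold change was -0.21 over the 28 members and 0.01 over all tested genes. Negative log2 fold changes were found for 21 of the 28 and positive ones for 7. The 3 values of one group lay wholly apart from those of the other for 16 of the 28 members, and for 50.6% of all tested genes. The changes were moderate. By edgeR, 0 members changed at least 2-fold at an adjusted p of 0.05, 0 did so at an unadjusted p of 0.05, and 0 did so by DESeq2 or by limma, while 3.55% of all tested genes did by edgeR. EFNB2 came closest. In bulk RNA, fewer cells of a type and less RNA per cell cannot be told apart.

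Under the other settings, the members' count is given of those tested, with the share of all genes that passed under the same setting. It was 11 of 28 with DESeq2 size factors (33.5% of all genes), 12 of 28 with library totals (33.8%), 11 of 28 with upper-quartile scaling (33.7%) and 11 of 28 with counts summed over rows that share a symbol (33.4%). With no filter on low values it was 11 of 51 (14.4%), with a filter at 1 FPKM 11 of 23 (36.7%) and with a filter on the mean 11 of 28 (33.0%). DESeq2 gave 14 of 28 (38.9%), limma on log2(FPKM + 1) 12 of 28 (33.6%) and limma on log2(FPKM + 0.1) 11 of 28 (32.3%). Without the genes whose intervals overlap another one it was 9 of 24 (36.7%), and with the replicate number as a block 10 of 28 (27.2%). Leaving out single libraries gave 10 to 12 of 28, and 24.4% (without siNC replicate 1) to 30.1% (without siEIF4G2 replicate 2) of all genes.

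**Figure D1:**
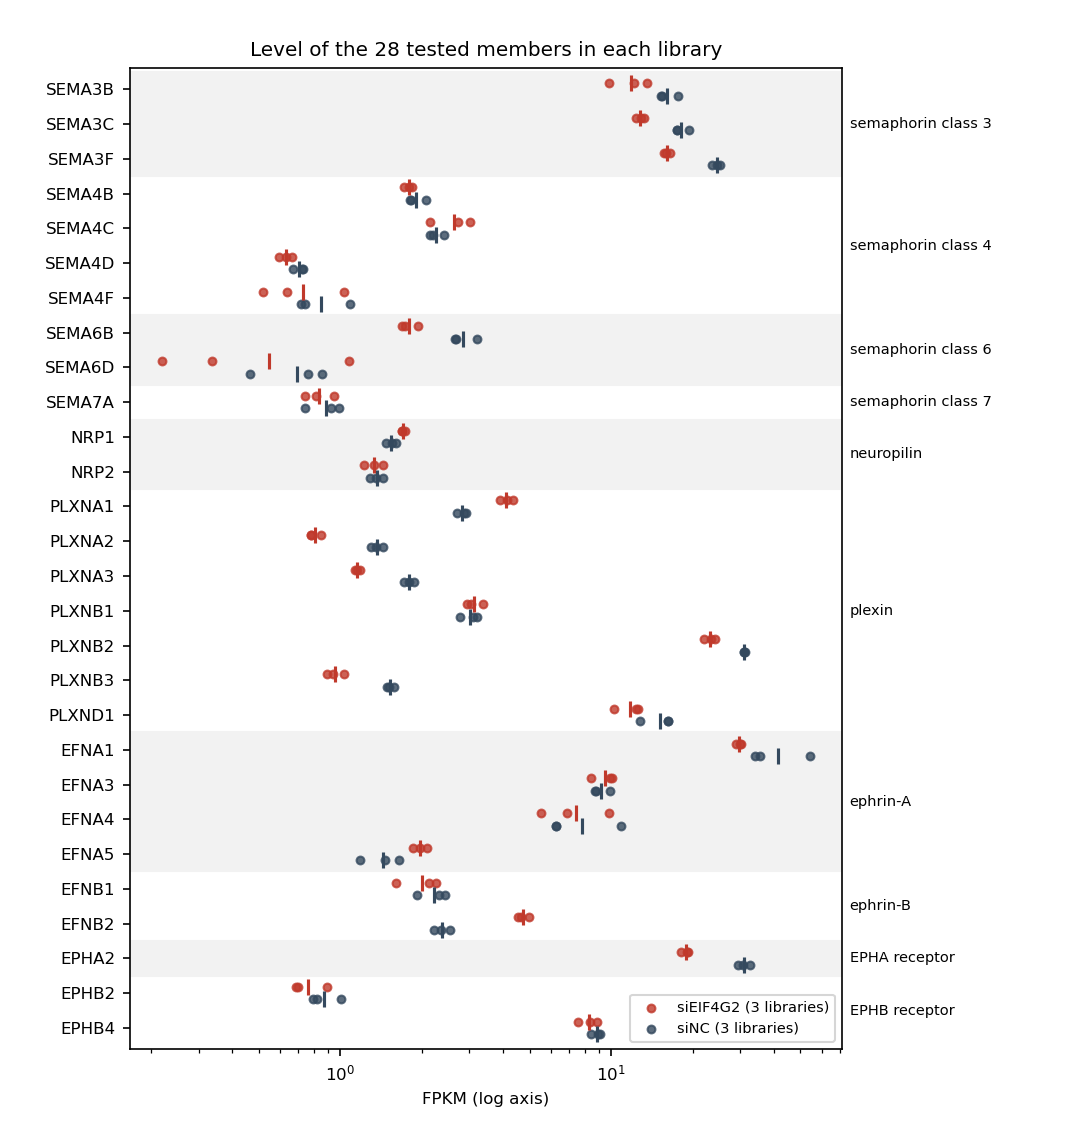
Level of each of the 28 tested members in each library, in FPKM on a log axis, ordered by family; dots are libraries, ticks are group means, and siEIF4G2 is drawn above siNC. EFNA1, PLXNB2, EPHA2 and SEMA3F have the highest means, and the groups of EPHA2, SEMA3F, PLXNB2 and EFNB2 stand apart while those of NRP2 and PLXNB1 overlap.

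The level of the group rested on few genes. A mean of at least 10 FPKM over the 6 libraries was reached by 7 members, EFNA1, PLXNB2, EPHA2, SEMA3F, SEMA3C, SEMA3B and PLXND1. All 7 had negative log2 fold changes, and 5 of them passed as lower, EFNA1 and PLXND1 being the exceptions. Among all tested genes, of any level, 17.6% passed as lower. Genes of like level were not set beside these 7. Summed over the 20 semaphorin genes, the level was 51.4, 50.8 and 49.8 FPKM in siEIF4G2 libraries and 68.0, 70.2 and 71.5 FPKM in siNC libraries. Summed over the 9 plexins it was 42.7, 46.3 and 46.6 FPKM in siEIF4G2 libraries and 57.2, 58.3 and 54.7 FPKM in siNC libraries. Summed over the 14 EPH receptors it was 28.4, 28.4 and 27.9 FPKM in siEIF4G2 libraries and 42.9, 39.6 and 40.3 FPKM in siNC libraries. In each of these 3 families the siEIF4G2 sums lay below every siNC sum. The 8 ephrins together gave 54.2, 58.1 and 54.2 FPKM in siEIF4G2 libraries and 60.2, 58.2 and 74.8 FPKM in siNC libraries, where the highest siEIF4G2 sum nearly met the lowest siNC sum. The sums follow their most abundant members and were not tested.

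All 3 tested class 3 semaphorins, the secreted class, were lower after silencing, against 17.6% of all tested genes, and the call of SEMA3B was lost in 8 of 18 alternatives. SEMA3F, which binds mainly neuropilin-2 and repels endothelial and tumour cells, stood at 16.55, 16.01 and 15.7 FPKM in siEIF4G2 libraries and at 24.7, 25.3 and 23.7 FPKM in siNC libraries. Its 3 siEIF4G2 values were tightly grouped and far below the siNC values, a 1.55-fold difference (log2 fold change -0.64, SE 0.05; edgeR adjusted p = 0.000501). SEMA3C, known to promote migration of several carcinoma cells, stood at 12.9, 12.3 and 13.3 FPKM in siEIF4G2 libraries and at 17.5, 17.5 and 19.3 FPKM in siNC libraries. It was 1.44-fold lower (log2 fold change -0.52, SE 0.05; edgeR adjusted p = 0.00137), again with no overlap between the groups. SEMA3B, a p53-induced semaphorin studied as a tumour suppressor, stood at 12.2, 13.5 and 9.81 FPKM in siEIF4G2 libraries and at 15.4, 15.2 and 17.6 FPKM in siNC libraries. Its groups did not overlap, but the siEIF4G2 replicates varied more (log2 fold change -0.47, SE 0.13; edgeR adjusted p = 0.0403).

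The call of SEMA3B was near the threshold. Among single libraries left out, it was lost without siEIF4G2 replicate 1 (edgeR adjusted p = 0.0947), siEIF4G2 replicate 3 (0.0558), siNC replicate 1 (0.0822), siNC replicate 2 (0.0727) or siNC replicate 3 (0.114), with log2 fold changes of -0.51 to -0.34 in these fits. The calls of SEMA3F and SEMA3C held on leaving out any single library.

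SEMA3F and SEMA3B lie 78482 bases apart on chromosome 3, both on the plus strand, SEMA3F from 50155045 to 50189075 and SEMA3B from 50267558 to 50277546 (GRCh38). The genes between them were looked up after these values were seen, and 3 of them were tested. GNAI2, a G protein alpha subunit, had a log2 fold change of -0.51 and SLC38A3, an amino acid transporter, one of -0.75 (edgeR adjusted p = 0.00357 and 0.00643). SEMA3B-AS1, a noncoding RNA on the minus strand from 50266641 to 50267371, does not overlap the SEMA3B interval. SEMA3B-AS1 had 7, 18 and 7 counts in siEIF4G2 libraries and 23, 36 and 28 counts in siNC libraries, and did not pass (log2 fold change -1.41; edgeR adjusted p = 0.0642). Thus 2 of the 3 tested genes between these semaphorins were lower, against 17.6% of all tested genes.

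The membrane-bound semaphorins were less abundant, at means of 0.619 to 2.44 FPKM for those tested, and 1 of 7 passed, against 33.4% of all tested genes. SEMA6B, a transmembrane ligand of class A plexins, stood at 1.73, 1.94 and 1.69 FPKM in siEIF4G2 libraries and at 2.69, 3.20 and 2.64 FPKM in siNC libraries. The groups did not overlap, and SEMA6B was 1.61-fold lower (log2 fold change -0.69, SE 0.12; edgeR adjusted p = 0.00711). SEMA4C, a ligand of PLXNB2, stood at 2.71, 2.15 and 3.02 FPKM in siEIF4G2 libraries and at 2.20, 2.43 and 2.14 FPKM in siNC libraries, so the groups overlapped (95% interval of the log2 fold change -0.13 to 0.51). SEMA4B, SEMA4D, SEMA4F and SEMA7A, which is anchored by a lipid, did not pass either, with log2 fold changes of -0.25 to -0.11. SEMA4D is the main ligand of PLXNB1, and its interval, -0.41 to 0.02, reached only just above 0.

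SEMA6D could not be placed. It stood at 0.335, 0.22 and 1.08 FPKM in siEIF4G2 libraries and at 0.761, 0.856 and 0.466 FPKM in siNC libraries, so siEIF4G2 replicate 3 was the highest of all 6 libraries and the other siEIF4G2 replicates were the lowest. Its log2 fold change was -0.39 (95% interval -1.84 to 1.07; edgeR adjusted p = 0.66), and -1.34 without siEIF4G2 replicate 3 (edgeR adjusted p = 0.0433). Its values were chosen for display after they were seen. The gene AC044787, on the other strand of the SEMA6D interval, stood higher, at 2.65 to 3.54 FPKM in siEIF4G2 libraries and 1.82 to 2.76 FPKM in siNC libraries.

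The neuropilins, co-receptors that also bind vascular endothelial growth factor, did not pass. NRP1 stood at 1.73, 1.70 and 1.69 FPKM in siEIF4G2 libraries and at 1.47, 1.60 and 1.56 FPKM in siNC libraries. The groups did not overlap, but the difference was small (log2 fold change 0.12, 95% interval -0.03 to 0.26; edgeR adjusted p = 0.197). NRP2 stood at 1.23, 1.33 and 1.43 FPKM in siEIF4G2 libraries and at 1.44, 1.36 and 1.28 FPKM in siNC libraries, which overlap (95% interval -0.27 to 0.15; edgeR adjusted p = 0.652). A change in NRP2 as large as that of its ligand SEMA3F, a log2 fold change of -0.64, lies outside that interval.

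**Figure D2:**
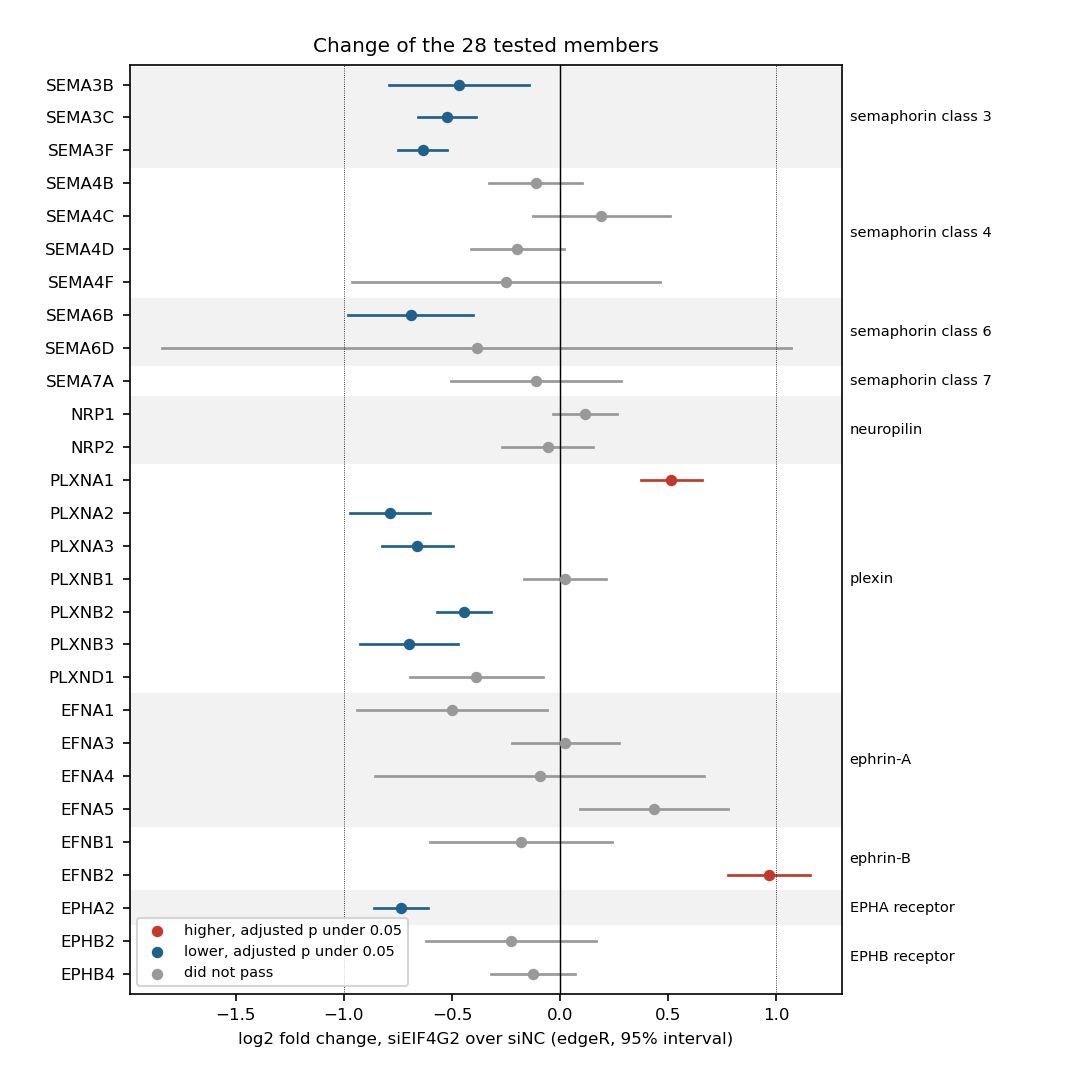
Log2 fold change of each tested member, siEIF4G2 over siNC, from edgeR with its 95% interval; colour marks the call at an adjusted p of 0.05, and dotted lines mark a 2-fold change. SEMA3B, SEMA3C, SEMA3F, SEMA6B, PLXNA2, PLXNA3, PLXNB2, PLXNB3 and EPHA2 lie to the left, and PLXNA1 and EFNB2 to the right.

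Plexins changed in opposite directions within one class. PLXNA1, a receptor for class 3 semaphorins together with neuropilins, stood at 4.33, 3.88 and 4.12 FPKM in siEIF4G2 libraries and at 2.69, 2.90 and 2.87 FPKM in siNC libraries. It was 1.43-fold higher (log2 fold change 0.51, SE 0.06; edgeR adjusted p = 0.00179). PLXNA2, its close relative, stood at 0.777, 0.783 and 0.85 FPKM in siEIF4G2 libraries and at 1.297, 1.36 and 1.44 FPKM in siNC libraries. It was 1.73-fold lower, the largest decrease among the tested members (log2 fold change -0.79, SE 0.08; edgeR adjusted p = 0.00108). PLXNA3, a receptor for SEMA3F with neuropilin-2, stood at 1.13, 1.18 and 1.15 FPKM in siEIF4G2 libraries and at 1.72, 1.87 and 1.79 FPKM in siNC libraries. It was 1.58-fold lower (log2 fold change -0.66, SE 0.07; edgeR adjusted p = 0.00126). In none of these 3 genes did the groups overlap. The PLXNA3 interval overlaps that of LAGE3 on the other strand, which stood at 22.1 to 26.4 FPKM in siEIF4G2 libraries and at 25.01 to 27.3 FPKM in siNC libraries, and nothing says whether reads were assigned by strand.

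The make-up of the class A plexins differed between the groups accordingly. PLXNA1 held 69.4%, 66.3% and 67.3% of the class's summed FPKM in siEIF4G2 libraries, and 47.1%, 47.3% and 47.1% in siNC libraries. PLXNA2 and PLXNA3 held 13.2 ± 0.71% and 19.0 ± 1.02% in siEIF4G2 libraries, and 22.8 ± 0.679% and 30.0 ± 0.636% in siNC libraries (SD, n = 3 each). These shares do not depend on how the libraries are scaled. PLXNA4, the remaining gene of the class, had at most 16 counts in any library.

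**Figure D3:**
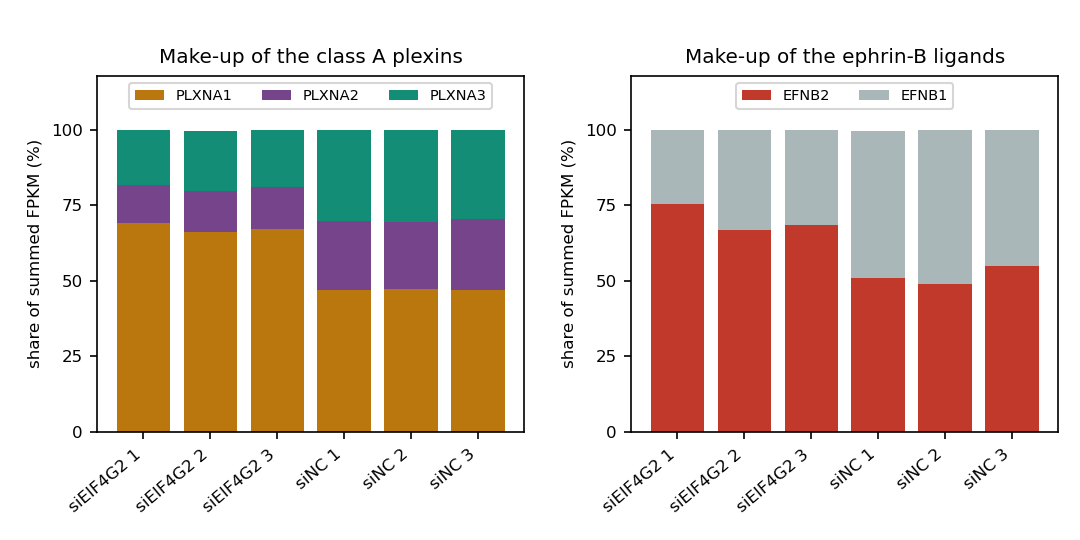
Share of the summed FPKM of the class A plexins (left) and the ephrin-B ligands (right) held by each gene in each library, with siEIF4G2 libraries left of siNC libraries; PLXNA4 and EFNB3, each under 1% in every library, are not drawn. PLXNA1 holds 66.3% to 69.4% in siEIF4G2 libraries against 47.1% to 47.3% in siNC libraries, and EFNB2 66.8% to 75.6% against 49.0% to 55.1%.

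Among the 3 B plexins, which bind class 4 semaphorins, 2 were lower, against 17.6% of all tested genes. PLXNB2, by far the most abundant plexin, stood at 22.1, 24.2 and 23.4 FPKM in siEIF4G2 libraries and at 31.0, 31.2 and 31.0 FPKM in siNC libraries. It was 1.36-fold lower with the groups well apart (log2 fold change -0.45, SE 0.05; edgeR adjusted p = 0.00191). PLXNB3, a receptor for SEMA5A, stood at 0.891, 0.942 and 1.03 FPKM in siEIF4G2 libraries and at 1.48, 1.58 and 1.51 FPKM in siNC libraries, 1.62-fold lower (log2 fold change -0.70, SE 0.09; edgeR adjusted p = 0.00302). PLXNB1 stood at 3.04, 2.95 and 3.36 FPKM in siEIF4G2 libraries and at 2.76, 3.09 and 3.19 FPKM in siNC libraries, with a 95% interval of -0.17 to 0.21 for its log2 fold change. PLXND1, a vascular plexin that also binds SEMA3C, stood at 10.3, 12.4 and 12.6 FPKM in siEIF4G2 libraries and at 16.2, 16.3 and 12.8 FPKM in siNC libraries. Its groups barely separated, since siNC replicate 3 lay close to the siEIF4G2 values (log2 fold change -0.39; edgeR adjusted p = 0.0593). Without siNC replicate 3 the log2 fold change was -0.49 (edgeR adjusted p = 0.0279), and DESeq2 on all libraries gave an adjusted p of 0.0189. In the other 16 of 18 alternatives PLXND1 did not pass.

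EFNB2, the transmembrane ephrin known from arteries and from signalling with EPHB4, showed the largest increase among the tested members. It stood at 4.98, 4.53 and 4.66 FPKM in siEIF4G2 libraries and at 2.54, 2.22 and 2.35 FPKM in siNC libraries. Every siEIF4G2 value was far above every siNC value, a 1.95-fold difference (log2 fold change 0.96, SE 0.08; edgeR adjusted p = 0.000651). Its log2 fold change was 0.92 to 1.02 on leaving out single libraries and passed 2-fold without siNC replicate 1. EFNB1, its close relative, stood at 1.60, 2.26 and 2.13 FPKM in siEIF4G2 libraries and at 2.44, 2.31 and 1.92 FPKM in siNC libraries, which overlap (log2 fold change -0.18, 95% interval -0.60 to 0.24; edgeR adjusted p = 0.466). EFNB2 held 70.3 ± 4.68% of the ephrin-B FPKM in siEIF4G2 libraries and 51.7 ± 3.12% in siNC libraries (SD, n = 3 each), so EFNB2 led in siEIF4G2 libraries and was near equal to EFNB1 in siNC libraries.

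No ephrin-A gene passed in edgeR with TMM scaling and all libraries. Of the 4 tested, 2 had an unadjusted p under 0.05 in edgeR. These same 2 passed by DESeq2, by which 38.9% of all genes passed. EFNA1, the main ligand of EPHA2 and the most abundant member of all, stood at 29.8, 29.01 and 30.05 FPKM in siEIF4G2 libraries and at 33.9, 35.6 and 54.2 FPKM in siNC libraries. The groups did not overlap, but siNC replicate 3 stood far above the other siNC libraries (log2 fold change -0.50, SE 0.18; edgeR adjusted p = 0.0787). Without siNC replicate 3 the log2 fold change was smaller, -0.25, and passed (edgeR adjusted p = 0.0221). With all libraries DESeq2 gave an adjusted p of 0.0234. In the other 16 of 18 alternatives EFNA1 did not pass. EFNA5 stood at 2.09, 1.98 and 1.86 FPKM in siEIF4G2 libraries and at 1.47, 1.65 and 1.18 FPKM in siNC libraries. Its groups did not overlap either (log2 fold change 0.43, SE 0.14; edgeR adjusted p = 0.0582), and it passed without siNC replicate 2 (log2 fold change 0.55; edgeR adjusted p = 0.0438). With all libraries it passed in edgeR with library totals (adjusted p = 0.0488), by DESeq2 (0.0199) and by limma on log2(FPKM + 1) (0.0404) and log2(FPKM + 0.1) (0.0458). In the other 13 of 18 alternatives EFNA5 did not pass. EFNA5 values were picked for display after they were seen.

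EFNA4, EFNA3 and EFNA1 lie in this order on the plus strand of chromosome 1, from 155063737 to 155134899 (GRCh38), with no other tested gene between them. EFNA3 stood at 9.88, 10.1 and 8.42 FPKM in siEIF4G2 libraries and at 8.83, 9.91 and 8.71 FPKM in siNC libraries (95% interval of the log2 fold change -0.22 to 0.27). EFNA4 stood at 5.53, 9.85 and 6.86 FPKM in siEIF4G2 libraries and at 10.9, 6.24 and 6.27 FPKM in siNC libraries (95% interval -0.86 to 0.67). The groups overlap for both genes, and the wide interval of EFNA4 comes with one high library in each group, siEIF4G2 replicate 2 and siNC replicate 1. The high EFNA1 value of siNC replicate 3 was not shared by EFNA3 or EFNA4.

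EPHA2, the receptor of EFNA1 and the EPH receptor best known from carcinomas, had the smallest p of all members. It stood at 19.1, 18.1 and 19.3 FPKM in siEIF4G2 libraries and at 32.5, 29.5 and 30.6 FPKM in siNC libraries. The groups were far apart and each was narrow, a 1.67-fold decrease (log2 fold change -0.74, SE 0.05; edgeR adjusted p = 0.000448). EPHA2 held 97.8% to 99.1% of the FPKM of all EPHA receptors in siEIF4G2 libraries and 99.1% to 99.4% in siNC libraries, so the sum of the class followed this single gene. A gene named AL451042 overlaps the EPHA2 interval on the other strand, but stood at only 0.525 to 0.717 FPKM in siEIF4G2 libraries and 0.206 to 0.813 FPKM in siNC libraries.

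The EPHB receptors did not pass. EPHB4, the receptor of EFNB2, stood at 8.34, 8.87 and 7.54 FPKM in siEIF4G2 libraries and at 9.12, 8.95 and 8.46 FPKM in siNC libraries. These ranges overlap (log2 fold change -0.13, 95% interval -0.32 to 0.07; edgeR adjusted p = 0.272), and the change of its ligand, 0.96, lies outside the interval. SLC12A9 overlaps EPHB4 on the other strand, at 1.24 to 1.51 FPKM in siEIF4G2 libraries and 2.06 to 2.12 FPKM in siNC libraries. EPHB2 had means of 0.759 ± 0.117 FPKM in siEIF4G2 libraries and 0.874 ± 0.118 FPKM in siNC libraries (SD, n = 3 each; edgeR adjusted p = 0.325).

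Of the 53 members, 25 were not tested. Their means over the 6 libraries reached at most 0.263 FPKM, clearly under the lowest mean of a tested member, 0.619 FPKM, and 12 of them had fewer than 100 counts over all libraries. They were 8 of the 9 EPHA receptors, EPHB1, EPHB3, EPHB6, EFNA2, EFNB3, PLXNA4, PLXNC1 and 10 semaphorins, among them SEMA3A, the founding repellent of the family, and SEMA3E, a ligand of PLXND1. EPHA8 and EPHB6 were at 0 counts in every library, which allows up to 3 counts, or 0.0412 to 0.0474 CPM (counts scaled to library size), for counting error only. In a fit with no filter on low values 23 of the 25 were tested and 1 passed. That was SEMA5B, with 18, 26 and 18 counts in siEIF4G2 libraries and 52, 66 and 45 counts in siNC libraries (log2 fold change -1.37; edgeR adjusted p = 0.0409, where 14.4% of all genes passed).

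Lists of proteins that act with or below these receptors, written out by name, were read from the same fit. Of 26 tested genes of semaphorin and plexin signalling, 2 were higher and 9 were lower, which is 11 of 26 against the 33.4% of all tested genes. By direction, 15.9% of all tested genes were higher and 17.6% were lower. The median log2 fold change of the list was -0.10. MICAL1, an actin-oxidising enzyme that binds plexins, stood at 1.41, 1.22 and 1.16 FPKM in siEIF4G2 libraries and at 2.36, 2.47 and 2.28 FPKM in siNC libraries (edgeR adjusted p = 0.00151). RRAS, the small GTPase inactivated by plexins, stood at 13.4, 13.5 and 11.6 FPKM in siEIF4G2 libraries and at 23.5, 23.8 and 21.6 FPKM in siNC libraries (edgeR adjusted p = 0.00148). Both were lower with no overlap. RHOD, a small GTPase, was 1.83-fold lower (edgeR adjusted p = 0.000545).

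RAC1, a GTPase that plexins and EPH receptors act through, was the exception among the 4 genes with the smallest p. It stood at 75.6, 79.8 and 74.6 FPKM in siEIF4G2 libraries and at 48.7, 48.3 and 48.1 FPKM in siNC libraries, 1.56-fold higher (edgeR adjusted p = 0.000542). RAC1 has processed pseudogene copies, and reads shared with them were not examined here. Other genes of the list that were lower included MST1R and MET, receptor tyrosine kinases that associate with B plexins, at -0.81 and -0.18 on the log2 scale (adjusted p = 0.00196 and 0.0374 in edgeR), and GIPC1, an adaptor of neuropilin-1 and PLXND1, with -0.34 (edgeR adjusted p = 0.00472).

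Of 25 tested genes of EPH and ephrin signalling, 5 were higher and 3 were lower, which is 8 of 25 and near the 33.4% of all tested genes, and the median log2 fold change was 0.13. GRB10, an adaptor that binds EPHB1, stood at 3.13, 2.94 and 3.11 FPKM in siEIF4G2 libraries and at 1.77, 1.75 and 1.67 FPKM in siNC libraries (edgeR adjusted p = 0.000481). VAV3, an exchange factor for small GTPases downstream of EPHA2, stood at 2.08, 1.85 and 2.15 FPKM in siEIF4G2 libraries and at 1.16, 1.16 and 1.004 FPKM in siNC libraries (edgeR adjusted p = 0.00212). Both were higher with no overlap, as was RASA1, a GTPase-activating protein that binds EPHB receptors (log2 fold change 0.37; edgeR adjusted p = 0.00597). ADAM17, a sheddase, was 1.47-fold lower (edgeR adjusted p = 0.00253). The count of 8 genes that passed fell to 5 without siEIF4G2 replicate 1, without siNC replicate 1 or without siNC replicate 2.

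Netrins, Slits, their receptors and other axon guidance genes were mostly low, with 25 of 31 under a mean of 1 FPKM and 7 tested. Of the 7, 1 passed, against 33.4% of all tested genes. ROBO1, a Slit receptor, was 1.27-fold lower (log2 fold change -0.35; edgeR adjusted p = 0.0178), and its adjusted p was 0.06 without siNC replicate 1. The other 6 did not pass. LRIG3 came closest, with a log2 fold change of 0.30 (edgeR adjusted p = 0.0529), and the median of the 7 was -0.15.

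**Figure D4:**
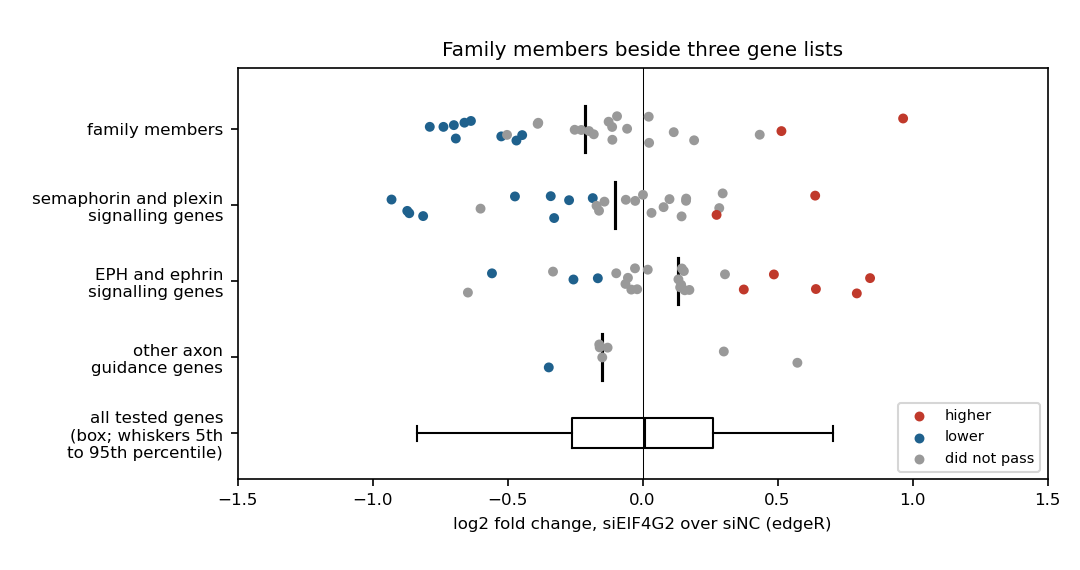
Log2 fold changes, siEIF4G2 over siNC, of the 28 tested family members and of the tested genes of 3 lists, 1 dot per gene coloured by call, with black bars at the medians; the box shows all tested genes with its quartiles and 5th to 95th percentiles. The medians are -0.21 for the members, -0.10, 0.13 and -0.15 for the lists and 0.01 for all tested genes, whose 5th and 95th percentiles are -0.84 and 0.71.

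Marker genes of other cell types were read in the same libraries. The epithelial keratin KRT8 stood at 168 to 188 FPKM in siEIF4G2 libraries and at 187 to 193 FPKM in siNC libraries, and did not pass (edgeR adjusted p = 0.126). KRT7 stood at 79.2 to 89.6 FPKM in siEIF4G2 libraries and at 159 to 190 FPKM in siNC libraries. It was 2.13-fold lower (edgeR adjusted p = 0.000682), and KRT18 was 1.13-fold lower (edgeR adjusted p = 0.019). Summed over each list, 10 fibroblast markers reached 99.8 to 102 FPKM in siEIF4G2 libraries and 77.5 to 85.8 FPKM in siNC libraries, 11 neuronal markers 6.22 to 9.70 FPKM in siEIF4G2 libraries and 8.85 to 12.3 FPKM in siNC libraries, and 11 endothelial markers 2.59 to 3.19 FPKM in siEIF4G2 libraries and 2.94 to 3.16 FPKM in siNC libraries. For 9 epithelial markers the sums were 423 to 462 FPKM in siEIF4G2 libraries and 553 to 581 FPKM in siNC libraries, for 10 immune markers 8.36 to 10.4 FPKM in siEIF4G2 libraries and 13.3 to 15.6 FPKM in siNC libraries, and for 7 adipocyte markers 2.56 to 2.85 FPKM in siEIF4G2 libraries and 1.96 to 2.18 FPKM in siNC libraries. These sums rest on few genes. The fibroblast sum rests mainly on COL3A1 and LUM, the neuronal sum on TUBB3 and SNAP25 and the endothelial sum on ESAM and CDH5. The immune sum rests mainly on CD68 and the adipocyte sum on LPL. Of defining markers, PTPRC, TIE1, FLT1 and ADIPOQ were at 0 counts in every library, and DCX had 4 counts in 1 library. Of the epithelial list, ESRP1 was at 0 counts in every library, EPCAM had 4 counts in 1 library, and CDH1 had 24 to 30 counts in siEIF4G2 libraries and 10 to 31 counts in siNC libraries, so the sum of the list rests mainly on KRT8, KRT18 and KRT7. Of these lists, 4 epithelial, 5 fibroblast, 2 neuronal, 2 endothelial, 2 immune and 1 adipocyte markers were tested. Of all tested genes 33.4% passed. The test passed 2 epithelial (KRT18 and KRT7), 1 neuronal (SNAP25), 1 endothelial and 2 immune (CD68 and CSF1R) markers as lower. It passed 3 fibroblast markers (COL3A1, DCN and LUM) and 1 adipocyte marker (LPL) as higher, and 2 fibroblast markers (COL1A1 and PDGFRB) as lower. CDH5, a cadherin of endothelium, was 3.01-fold lower, at a low level (edgeR adjusted p = 0.000756). It stood at 0.386 to 0.506 FPKM in siEIF4G2 libraries and at 1.23 to 1.34 FPKM in siNC libraries. CDH5 thus met the filter of 0.5 FPKM in 3 libraries only through the siNC group, where it was high. ESAM, the other tested endothelial marker, stood at 1.83 to 2.49 FPKM in siEIF4G2 libraries and at 1.36 to 1.60 FPKM in siNC libraries. It was higher without overlap of the groups but did not pass (edgeR adjusted p = 0.0929). The part of these shifts in the results above was not tested.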

How the data were processed

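The authors deposited 1 table of 60612 genes with a count and an FPKM value per library. The deposited counts are whole numbers and were taken as estimated counts (expected counts) that had been rounded. FPKM columns are named so per the file headers, and hold 0.0001 where the count is 0. HISAT2 2.0 and StringTie 1.3.0 appear, with no role, per the submitters' processing notes. Genome build, annotation and strand use: not given in the sources used here. All 53 members overlapped their GENCODE release 29 intervals, so coordinates are given as GRCh38, although only 28.3% of members (72.6% of all shared genes) had the same start and end there. Promoter windows are RefSeq's, on GRCh38.

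Of rows sharing a symbol the one with the highest mean FPKM was kept. A gene was tested if 3 or more libraries reached 0.5 FPKM, which held for 13748 genes; 27 of the 28 tested members reached it in every library, SEMA6D being the exception. The test was edgeR's quasi-likelihood test on TMM-scaled counts (factors 0.985 to 1.02) with the group as the only term, two-sided, adjusted by Benjamini-Hochberg over all tested genes. Standard errors were obtained as |log2 fold change| over √F. The 95% intervals use the test's own degrees of freedom. Versions were edgeR 4.0.16, DESeq2 1.42.0 and limma 3.58.1 under R 4.3.3, with Python 3.11.15.

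Values in every library are given for members that passed, for the 8 most abundant others, and for a few chosen after their values were seen. Up to 4 genes with the smallest p are given per signalling list, and MST1R, MET, GIPC1 and LRIG3 were added after their values were seen. Members and lists were chosen with earlier results of these data known. Alternatives were other scalings, filters, tools and pseudocounts, a replicate block, summed rows, genes without overlaps and leaving out each library.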

Additional observations from a re-analysis of the deposited data

How the results depend on the processing

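Of the 11 members that passed, 10 kept their direction and their call in every alternative in which they were tested, and SEMA3B was the exception. SEMA3B also failed to pass when low genes were kept (edgeR adjusted p = 0.07), with limma on log2(FPKM + 0.1) (0.0549) and with the replicate block (0.0936). The count of members that passed was 9 to 14 over the alternatives other than leave-outs, with 14 by DESeq2, 12 by limma on log2(FPKM + 1), 10 with the replicate block and 9 among the 24 members that overlap no other counted gene. It was 10 to 12 on leaving out single libraries. Same-numbered libraries correlated at -0.021 to 0.034 in their deviations from the group means, and differently numbered ones at -0.063 to 0.045. The labels do not say whether the numbers pair the libraries. A correlation over all genes cannot decide this, since it can miss a pairing that touches few genes. The count of members changed at least 2-fold was 1 (SEMA5B) with no filter, and 0 to 1 on leaving out single libraries. The 1 was SEMA6D without siEIF4G2 replicate 3 and EFNB2 without siNC replicate 1.

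The median log2 fold change of the members was -0.25 to -0.16 on leaving out single libraries, -0.18 with a filter at 1 FPKM, -0.10 with limma on log2(FPKM + 1), a scale that shrinks the change of low genes, and -0.17 with limma on log2(FPKM + 0.1). Members that did not pass changed sign in some leave-outs: EFNA3 ranged from -0.038 to 0.11, EFNA4 from -0.37 to 0.23, NRP2 from -0.11 to 0.0071 and PLXNB1 from -0.034 to 0.067. The count of EPH and ephrin signalling genes was 5 to 8 in leave-outs. That of other axon guidance genes was 0 to 2 in leave-outs, and 2 with library totals, upper-quartile scaling, no filter, a filter at 1 FPKM, DESeq2, limma on either scale and genes without overlaps. The causes were not tested. With 3 libraries a group, an exact permutation test of a single gene cannot go below p = 0.1. Of the 25 members that were not tested, 12 had fewer than 100 counts over all libraries.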
